A study of Mus musculus with 12 samples.

Results

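Ppargc1a, Ppargc1b, Esrra, Esrrb, Esrrg, Ppara, Ppard, Nrf1 and Tfam encode a small circuit of nuclear coactivators, nuclear receptors and transcription factors that sets how much mitochondrial and fat-burning machinery a heart muscle cell makes. The 9 genes were taken by name from the 17397 genes in the deposited table, and all 9 had enough counts to be tested. They were measured by RNA sequencing in hearts of wild-type male C57BL/6J mice, 8 weeks old at the start of the study. The tumour trained group received B16F10 cells, a mouse melanoma line, and ran on a treadmill. The tumour group received the cells without running, the trained group ran without receiving cells, and the control group, labelled saline, did neither. Whether trained mice were also given saline is not stated. Running covered 5 days of each of 4 weeks. It began with 1 adaptation week reaching 15 m/min, and later sessions had 5 min at 6 m/min followed by 35 min at 12 m/min. Injections of 100000 cells into the tail vein started in week 2. Each group had 3 libraries. Nothing in the labels ties a library to its own mouse, and the p-values reflect no more than the variation among these libraries, which may be technical.

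PGC-1alpha (Ppargc1a) and PGC-1beta (Ppargc1b) do not bind DNA. They dock on transcription factors and recruit enzymes that open chromatin, and PGC-1alpha is known as the form induced by exercise, fasting and cold. Their partners include the oestrogen-related receptors (Esrra, Esrrb and Esrrg), orphan receptors that bind upstream of respiratory chain and citric acid cycle genes, and the peroxisome proliferator-activated receptors (Ppara and Ppard), fatty acid sensors that switch on fatty acid uptake and oxidation. Nuclear respiratory factor 1 (Nrf1, gene ID 18181, not a member of the Nfe2l family) acts on nuclear genes of the respiratory chain and on Tfam. TFAM enters the mitochondrion, where it packages mitochondrial DNA and starts its transcription.

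The regulators' own promoters hold letter matches to some motifs that such factors bind, given here as a description and not as sites of binding. RefSeq promoter windows on GRCm38.p6, from 250 bases before to 50 bases after a transcription start, were found for 8 of the 9 genes (all but Ppargc1b), 13 windows in all. Both strands were searched for the NRF-1 core GCATGCGC, the ERR element TNAAGGTCA, the ETS site ACCGGAAG bound by GABP, the cAMP response element TGACGTCA, and its shorter core TGACG, which lies within it. Over all 32851 promoter windows, 2.71% held the NRF-1 core, 1.28% the ERR element, 2.30% the ETS site, 1.79% the cAMP response element and 20.8% its shorter core. The windows of Ppargc1a (chr5:51567676-51567975, minus strand) and Tfam (chr10:71237995-71238294, minus strand) are shown because these genes were above every control library in every tumour trained library. Those of Esrra (chr19:6921759-6922058, minus strand) and Ppara (chr15:85735526-85735825, plus strand) are shown because these genes were low in tumour 1 and tumour 2. Among genes like these, only windows with a match marked here are shown. Esrrg met both conditions and Esrrb the second, but their windows held no NRF-1 core, ERR element, ETS site or whole cAMP response element. An Esrrb window held TGACG. Capitals mark the matches named after the sequences, and the Ppargc1a match reads as the reverse complement of TGACG.
Ppargc1a: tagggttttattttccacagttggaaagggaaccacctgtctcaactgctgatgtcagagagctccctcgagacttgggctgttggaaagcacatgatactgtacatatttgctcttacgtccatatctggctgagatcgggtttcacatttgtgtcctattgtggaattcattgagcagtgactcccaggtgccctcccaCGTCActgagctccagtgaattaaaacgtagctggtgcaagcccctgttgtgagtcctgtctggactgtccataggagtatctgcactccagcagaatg
Tfam: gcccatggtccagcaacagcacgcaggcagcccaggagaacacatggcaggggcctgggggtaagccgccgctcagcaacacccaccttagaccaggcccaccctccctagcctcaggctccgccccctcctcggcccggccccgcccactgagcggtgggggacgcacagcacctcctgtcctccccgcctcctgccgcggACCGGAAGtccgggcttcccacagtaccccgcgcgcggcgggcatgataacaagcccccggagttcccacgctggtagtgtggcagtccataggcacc
Esrra: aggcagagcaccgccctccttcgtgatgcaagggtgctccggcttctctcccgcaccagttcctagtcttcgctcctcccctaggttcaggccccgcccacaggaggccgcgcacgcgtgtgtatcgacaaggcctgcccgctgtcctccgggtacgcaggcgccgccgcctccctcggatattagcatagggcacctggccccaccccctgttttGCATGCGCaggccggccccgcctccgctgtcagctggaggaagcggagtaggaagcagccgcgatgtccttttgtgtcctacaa
Ppara: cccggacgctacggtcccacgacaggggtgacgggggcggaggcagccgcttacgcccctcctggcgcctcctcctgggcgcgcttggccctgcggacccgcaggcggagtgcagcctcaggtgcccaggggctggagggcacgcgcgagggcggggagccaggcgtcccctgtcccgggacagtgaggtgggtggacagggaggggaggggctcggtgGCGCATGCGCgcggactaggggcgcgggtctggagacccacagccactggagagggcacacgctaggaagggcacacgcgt
The Ppargc1a window held TGACG on the other strand at -49 from the start, the Tfam window the ETS site at -48 and the Esrra window an NRF-1 core at -34. The Ppara window held overlapping NRF-1 cores, and farther from the start an uncapitalised TGACG. No searched window held the ERR element or the whole cAMP response element, which says only that these letters were not in these windows.

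Library totals ranged from 8843909 to 13344847 counts. Levels are given as CPM, counts relative to library size after scaling with edgeR's trimmed mean of M values (TMM). CPM depends on transcript length, so levels are compared between libraries and not between genes. The labels' extraction protocol speaks of livers, whereas the tissue label says heart: 10 cardiomyocyte markers held 9.80% to 10.7% of counts in every library outside the tumour group, and 6 hepatocyte markers held at most 0.000721% in any library. In the tumour group, the cardiomyocyte list held 2.47% of counts in tumour 1 and 5.95% in tumour 2, and held 9.47% in tumour 3. All 7 melanocyte markers were detected, and their sum was 1.18% of counts in tumour 1, 0.529% in tumour 2 and 0.00767% in tumour 3, against 0.00458% to 0.00796% in the other 9 libraries. In bulk tissue, fewer cells of a type and less RNA per cell cannot be told apart. Trained 2 stood apart in another way, with GC-rich transcripts high and GC-poor ones low relative to the other trained libraries. For the regulators, results that rest on tumour 1, tumour 2 or trained 2 are therefore also given without them.

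In the fit of all 12 libraries, none of the 9 regulators passed an edgeR adjusted p of 0.05 in any of the 6 comparisons made. Of all 12778 genes tested, 6.79% passed for tumour against control, 9.05% for tumour trained against tumour and 0.0235% for the interaction of tumour and running. The share was 0% for the remaining comparisons, namely tumour trained with either trained or control hearts and trained with control hearts. At an unadjusted p below 0.05, 2 regulators passed for tumour against control, 4 for tumour trained against tumour and 1 for tumour trained against control, with 0 in the other 3 comparisons. Of all 12778 genes, 4395, 4073 and 826 did so in those comparisons, so passing at this level was common among all genes in the comparisons with tumour hearts. DESeq2 called 1 regulator for tumour against control and 3 for tumour trained against tumour, beside 17.8% and 18.6% of all genes, and 0 elsewhere. The plot of all 9 genes shows their level in each library.

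**Figure D1:**
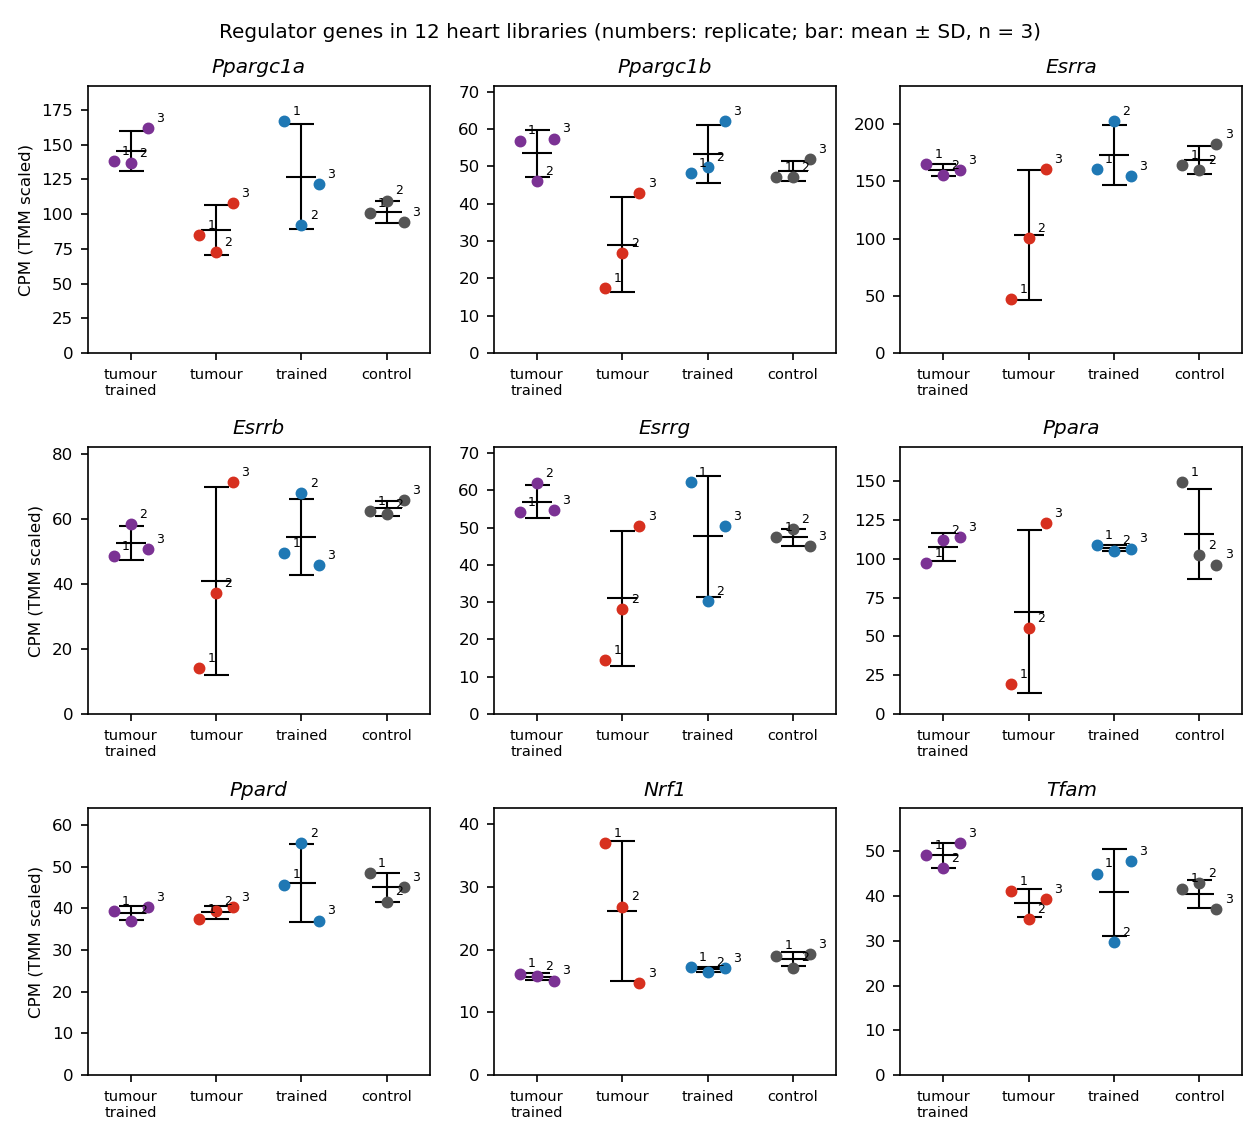
TMM-scaled CPM (y axis) of each regulator in the 3 libraries of each group (x axis), with points numbered by replicate and bars at the mean ± SD. Tumour 1 is the lowest library for Ppargc1b, Esrra, Esrrb, Esrrg and Ppara and the highest for Nrf1, while tumour 3 lies near the control libraries.

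Ppargc1a, the exercise-inducible coactivator, had its highest single-library levels in hearts of running mice. It was at 138.1, 136.6 and 162.0 CPM in tumour trained hearts, 84.9, 72.5 and 108.2 CPM in tumour hearts, 167.2, 91.9 and 121.7 CPM in trained hearts, and 100.8, 109.8 and 94.1 CPM in control hearts. All tumour trained libraries were above all control and all tumour libraries, whereas trained 2 lay below the control range and trained 1 and 3 above it. Tumour trained hearts averaged 146 ± 14.3 CPM, against 102 ± 7.87 CPM in control hearts (SD, n = 3 each). On the log2 scale they were 0.52 ± 0.22 (SE) higher (edgeR adjusted p = 0.766, 95% interval from 0.02 to 1.02). Against tumour hearts, at 88.5 ± 18.1 CPM, tumour trained hearts were higher by 0.72 ± 0.22 on the log2 scale (edgeR adjusted p = 0.0581, from 0.00690 to 0.850 over 25 alternatives). Without tumour 1 and 2 that difference was 0.41, and it was 0.08 with the GC correction added. Trained hearts differed from control hearts by 0.32 ± 0.22 (edgeR adjusted p = 1.00, 95% interval from -0.18 to 0.82).

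Whether Ppargc1a passed in running mice depended on which libraries set the spread. With only tumour trained and control libraries in the fit, the log2 difference between them was 0.51 ± 0.09 and passed (edgeR adjusted p = 0.00576), as did 19.5% of all genes. Without tumour 1, tumour 2 and trained 2 it was 0.51 ± 0.11 (edgeR adjusted p = 0.00870, with 22.1% of all genes called), and trained against control was 0.50 ± 0.13 (edgeR adjusted p = 0.0250, with 11.7% of all genes called). With a correction for transcript GC content, the tumour trained against control value was 0.14 over all libraries and 0.16 without tumour 1, tumour 2 and trained 2 (edgeR adjusted p = 0.421). Trained against control was 0.17 with the correction and those 3 libraries left out (edgeR adjusted p = 0.476). The adjusted p of tumour trained against control ranged from 0.00576 to 1.00 over 25 alternatives, and its direction was upward in each of them.

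Ppargc1b, the more constitutive coactivator, was low in hearts of untrained tumour-bearing mice. It was at 56.9, 46.2 and 57.5 CPM in tumour trained hearts, 17.5, 26.9 and 42.8 CPM in tumour hearts, 48.2, 49.8 and 62.2 CPM in trained hearts, and 47.2, 47.1 and 51.9 CPM in control hearts. All tumour libraries lay below those of every other group, with tumour 3 the nearest to them. Tumour hearts differed from control hearts by -0.75 ± 0.26 on the log2 scale (edgeR adjusted p = 0.0826, from 0.00106 to 0.804 over 25 alternatives). Tumour trained against tumour was 0.89 ± 0.26 (edgeR adjusted p = 0.0554, from 0.000554 to 0.582). Without tumour 1 and 2, where tumour 3 is assumed to vary like the other groups, these were -0.18 ± 0.18 (edgeR adjusted p = 0.804) and 0.31 ± 0.18 (edgeR adjusted p = 0.448). Tumour trained and trained hearts averaged 53.5 ± 6.36 and 53.4 ± 7.71 CPM (SD, n = 3 each), with a 95% interval of the log2 difference from -0.60 to 0.60.

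All oestrogen-related receptor genes were lowest in tumour 1, next lowest in tumour 2 and highest in tumour 3 within the tumour group. Esrra, the family member most tied to respiratory chain genes, was at 165.1, 155.2 and 159.7 CPM in tumour trained hearts, 47.3, 100.2 and 161.0 CPM in tumour hearts, 160.9, 202.9 and 154.7 CPM in trained hearts, and 164.5, 159.6 and 182.7 CPM in control hearts. Only tumour 1 and 2 were low, and tumour 3 lay inside the control range. On the log2 scale it was -0.72 ± 0.33 for tumour against control (edgeR adjusted p = 0.143) and 0.64 ± 0.33 for tumour trained against tumour (edgeR adjusted p = 0.193). Without tumour 1 and 2 both were near 0, at -0.06 ± 0.16 and -0.02 ± 0.16.

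Esrrg, the receptor that in heart is known to drive the perinatal switch to oxidative metabolism, was at 54.1, 62.0 and 54.6 CPM in tumour trained hearts, 14.5, 28.1 and 50.4 CPM in tumour hearts, 62.3, 30.3 and 50.3 CPM in trained hearts, and 47.4, 49.5 and 45.1 CPM in control hearts. Tumour trained libraries lay above all tumour and all control libraries. Its log2 fold change was 0.88 ± 0.37 for tumour trained against tumour (edgeR adjusted p = 0.129), -0.62 ± 0.37 for tumour against control (edgeR adjusted p = 0.236) and 0.26 ± 0.37 for tumour trained against control (edgeR adjusted p = 0.942). With the GC correction the last value was -0.07 (edgeR adjusted p = 1.00). Without tumour 1 and 2, tumour trained against tumour was 0.16 and tumour against control was 0.10. Trained 2 had the lowest Esrrg level outside tumour 1 and 2.

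Esrrb, best known from embryonic stem cells and placenta, was lower in tumour trained than in control hearts, where Esrrg was higher. It was at 48.5, 58.4 and 50.7 CPM in tumour trained hearts, 14.1, 37.2 and 71.4 CPM in tumour hearts, 49.4, 67.8 and 45.9 CPM in trained hearts, and 62.3, 61.3 and 65.8 CPM in control hearts. Every tumour trained library was below every control library, and among the running mice trained 2 alone was above the controls. Over all libraries it was -0.27 ± 0.41 (log2) for tumour trained against control (edgeR adjusted p = 0.952) and -0.21 ± 0.41 for trained against control (edgeR adjusted p = 1.00). Without tumour 1, tumour 2 and trained 2, both passed, at -0.27 ± 0.08 (edgeR adjusted p = 0.0373) and -0.41 ± 0.10 (edgeR adjusted p = 0.0177). Of all genes, 22.1% and 11.7% passed in these comparisons. With the GC correction added neither value passed, at -0.14 (edgeR adjusted p = 0.324) and -0.30 (edgeR adjusted p = 0.0911). Tumour trained against tumour was 0.37 ± 0.41 over all libraries, with edgeR adjusted p from 0.0201 to 0.913 over 25 alternatives. Without those 3 libraries it was -0.46, and it was -0.33 with the GC correction added to that. Both of these values rest on tumour 3 alone in the tumour group, so they hold no variation among tumour hearts.

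Ppara, the fatty acid sensor of oxidative tissues, was farther below the control mean in tumour 1 than any other of the 9. It was at 97.1, 111.8 and 113.6 CPM in tumour trained hearts, 19.3, 55.1 and 122.7 CPM in tumour hearts, 108.9, 105.2 and 106.4 CPM in trained hearts, and 149.5, 102.4 and 96.2 CPM in control hearts. Tumour 1 and 2 lay far below all other libraries, and tumour 3 lay within the control range. Its log2 fold change was -0.82 ± 0.46 for tumour against control (edgeR adjusted p = 0.214) and 0.71 ± 0.46 for tumour trained against tumour (edgeR adjusted p = 0.295), and these were 0.09 ± 0.21 and -0.21 ± 0.21 without tumour 1 and 2. Levels in both running groups lay within the control range.

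Ppard, the more widely expressed PPAR of muscle and heart, spanned a narrow range outside the trained group. It was at 39.3, 37.0 and 40.3 CPM in tumour trained hearts, 37.3, 39.3 and 40.3 CPM in tumour hearts, 45.7, 55.7 and 37.0 CPM in trained hearts, and 48.4, 41.6 and 45.1 CPM in control hearts. Both tumour-bearing groups lay below the control libraries without overlap, by -0.21 ± 0.15 on the log2 scale in each case (edgeR adjusted p = 0.830 for tumour trained against control and 0.327 for tumour against control). Between tumour trained and tumour hearts, whose ranges overlapped, the 95% interval of the log2 difference ran from -0.36 to 0.35.

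Nrf1, the activator of nuclear-encoded respiratory genes, was, of the 9, the gene above every control library in both tumour 1 and tumour 2. It was at 16.2, 15.7 and 15.0 CPM in tumour trained hearts, 37.0, 26.9 and 14.7 CPM in tumour hearts, 17.2, 16.4 and 17.0 CPM in trained hearts, and 19.1, 17.1 and 19.2 CPM in control hearts. Tumour 3 was the lowest of the 12 libraries, and every tumour trained library was below every control library. Its log2 fold change was 0.51 ± 0.26 for tumour against control (edgeR adjusted p = 0.180), -0.75 ± 0.26 for tumour trained against tumour (edgeR adjusted p = 0.0841) and -0.24 ± 0.26 for tumour trained against control (edgeR adjusted p = 0.929). Without tumour 1 and 2, tumour against control was -0.32 and tumour trained against tumour was 0.08. With the GC correction and without tumour 1, tumour 2 and trained 2, tumour trained against control passed at -0.41 ± 0.10 (edgeR adjusted p = 0.0306, from that to 1.00 over 25 alternatives), as did 9.22% of all genes.

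Tfam, the packaging protein and transcription factor of mitochondrial DNA, had its highest mean in tumour trained hearts. It was at 49.1, 46.2 and 51.9 CPM in tumour trained hearts, 41.1, 34.9 and 39.2 CPM in tumour hearts, 44.97, 29.7 and 47.8 CPM in trained hearts, and 41.6, 42.9 and 37.0 CPM in control hearts. The tumour trained libraries lay above all tumour and all control libraries, and trained 2 was the lowest of the 12. It differed by 0.35 ± 0.17 (log2) for tumour trained against tumour (edgeR adjusted p = 0.185) and 0.28 ± 0.18 for tumour trained against control (edgeR adjusted p = 0.805). The second of these passed without tumour 1, tumour 2 and trained 2 (0.27 ± 0.08, edgeR adjusted p = 0.0364, from that to 1.00 over 25 alternatives), as did 22.1% of all genes. It was 0.07 with the GC correction over all libraries.

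Counted over the set, 8 of 9 regulators had negative fold changes for tumour against control, where 43.5% of all genes did. Their median was -0.62 beside 0.11 for all genes tested. Without tumour 1 and 2 the regulators' values for this comparison ran from -0.32 (Nrf1) to 0.19 (Esrrb). The count of regulators whose tumour libraries all lay below the control libraries was 2, where 11.8% of all genes did so. No regulator lay wholly above, where 14.2% of all genes did. For tumour trained against tumour, the median of the 9 was 0.64 beside -0.04 for all genes. There, 4 regulators lay wholly above, where 13.5% of all genes did, and 0 wholly below, where 14.5% did. Without tumour 1 and 2 the values for this comparison ran from -0.46 (Esrrb) to 0.41 (Ppargc1a). For tumour trained against control, 3 regulators (Ppargc1a, Esrrg and Tfam) lay wholly above, where 21.9% of all genes did, and 3 (Esrrb, Ppard and Nrf1) wholly below, where 17.4% did. The comparisons with tumour hearts share the same 3 tumour libraries, and those with control hearts the same 3 control libraries.

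The calls against tumour hearts turned on which tumour libraries entered. Without tumour 3, edgeR called 6 regulators for tumour against control (52.3% of all genes), with Ppara at -1.64, Esrrb at -1.30, Esrra at -1.20, Esrrg at -1.16, Ppargc1b at -1.14 and Nrf1 at 0.79 on the log2 scale. In that fit 7 regulators were called for tumour trained against tumour (48.7% of all genes), these 6 and Ppargc1a at 0.89. The interaction was called for 6 regulators (29.6% of all genes). Without tumour 1 and 2, by contrast, no regulator was called, while 1.41% of all genes were called for tumour against control and 0.72% for tumour trained against tumour. Other settings made single calls for tumour trained against tumour: Ppargc1b with library size alone (edgeR adjusted p = 0.0417, 13.2% of all genes) or the GC correction (edgeR adjusted p = 0.0378, 11.4% of all genes), and Ppargc1a without trained 2 (edgeR adjusted p = 0.0454, 7.97% of all genes). The DESeq2 calls were Ppargc1b for tumour against control, and Ppargc1a, Ppargc1b and Nrf1 for tumour trained against tumour.

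The cardiomyocyte share of counts moved with these levels. When libraries were scaled to their summed cardiomyocyte marker counts instead of by TMM, the log2 differences of tumour 1, 2 and 3 to the control mean became -0.16, -0.09 and 0.16 for Ppara, whereas on the TMM scale they were -2.59, -1.07 and 0.08. For Esrrb they became 0.26, 0.22 and 0.26, against -2.17, -0.76 and 0.18 with TMM. Esrra, Esrrg and Ppargc1b likewise lost their deficit, at 0.59, 0.71 and 0.94 in tumour 1. Relative to cardiomyocyte transcripts, then, these 5 genes were not below the control mean by more than 0.16 in any tumour library. This scaling shifts every gene of a library alike, and why these levels were low was not tested. For tumour against control it moved the median of all genes to 1.58, and these 5 lay below that median, at 0.39 or less by edgeR.

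Ppard, Tfam, Ppargc1a and Nrf1 rose farthest above the control mean in tumour 1 on the cardiomyocyte scale. Ppargc1b (0.94), Esrrg (0.71), Esrra (0.59) and Esrrb (0.26) were above the control range there too, and Ppara (-0.16) was within it. On the cardiomyocyte scale, tumour 1, 2 and 3 were at 2.15, 0.78 and -0.07 for Ppard, 2.44, 0.76 and 0.03 for Tfam, 2.16, 0.49 and 0.17 for Ppargc1a, and 3.43, 1.52 and -0.25 for Nrf1. Tumour 3, with hardly any melanocyte transcript, was near the control mean for Ppard and Tfam. It lay just above the control range for Ppargc1a and below it for Nrf1. With this scaling edgeR called all 4 higher for tumour against control, by 1.24 (Ppard), 1.44 (Tfam), 1.22 (Ppargc1a) and 2.26 (Nrf1), and Ppard and Nrf1 lower for tumour trained against tumour, by -1.402 and -2.45. The scaling moved the median of all genes to 1.58 and -1.46 in these comparisons, and 74.4% and 64.4% of all genes were called, so relative to that shift Ppargc1a, Ppard and Tfam were lower than the median gene in the first comparison. How much of each transcript came from cells other than cardiomyocytes was not tested.

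**Figure D2:**
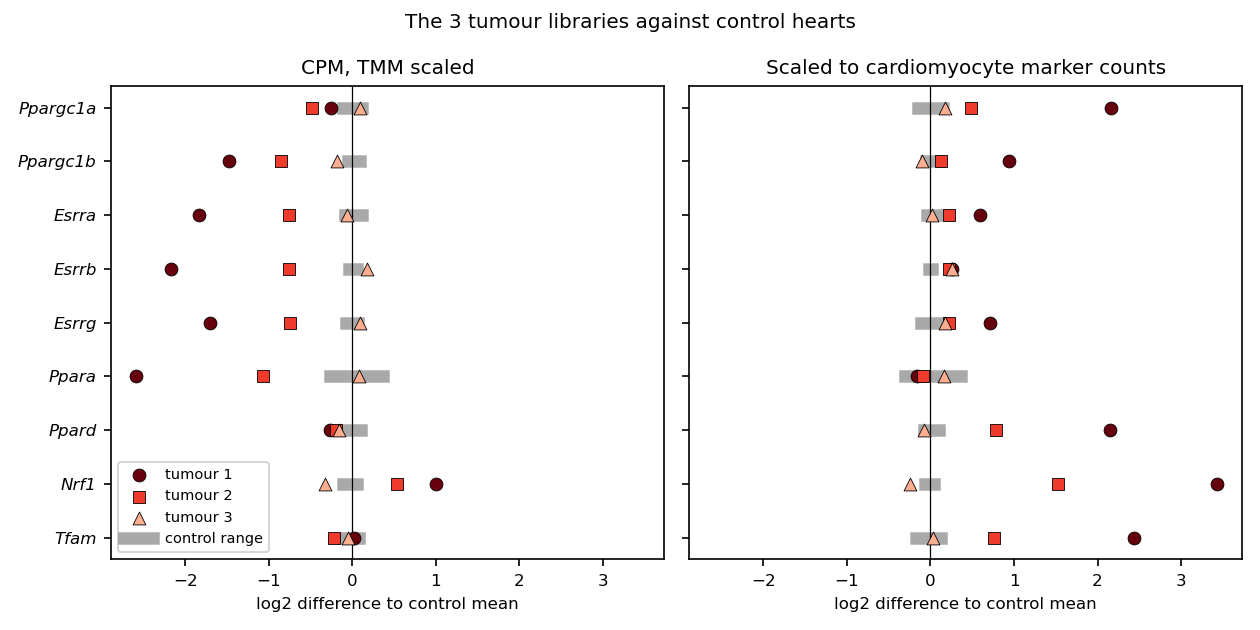
Log2 difference of each tumour library to the control mean (x axis) for each regulator (y axis), on the TMM scale (left) and scaled to cardiomyocyte marker counts (right), with grey bars for the range of the 3 control libraries. Ppara, Esrrb, Esrra, Esrrg and Ppargc1b lie left of the control range in tumour 1 and 2 on the left and not on the right, whereas Nrf1, Tfam, Ppard and Ppargc1a lie far right of it in tumour 1 on the right.

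Leaving out tumour 1 and 2 drew the tumour against control values of the regulators towards 0, and the GC correction did the same to several tumour trained against control values. The plot of fold changes sets both beside the fit of all libraries.

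**Figure D3:**
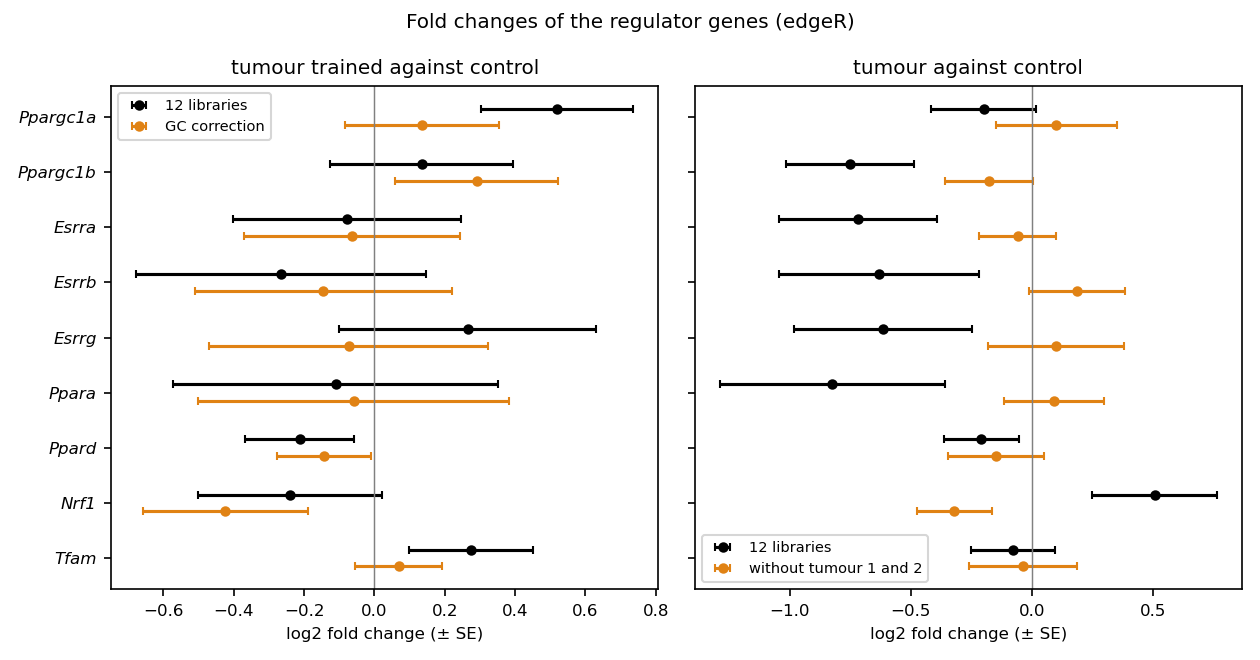
Log2 fold change ± SE (x axis) of each regulator (y axis) from edgeR, for tumour trained against control (left) with and without the GC correction, and for tumour against control (right) with and without tumour 1 and 2. Ppargc1a moves from 0.52 to 0.14 with the correction, and Ppara from -0.82 to 0.09 without the 2 libraries.

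The GC content of transcripts differed between most running libraries and the controls. For each library, the median log2 level of the 1269 most GC-rich genes relative to control hearts, minus that of the 1269 most GC-poor genes, was -0.60, -0.75 and -0.72 in tumour trained 1, 2 and 3. It was -0.61 and -0.64 in trained 1 and 3 but 0.51 in trained 2, and lay between -0.17 and 0.12 in control libraries. It was -1.21, -0.19 and -0.09 in tumour 1, 2 and 3. Every library from a running mouse except trained 2 was thus tilted towards GC-poor transcripts, and this tilt cannot be told apart from running in the tumour trained group.

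Ppargc1a (41.7% GC), Esrrg (42.5%) and Tfam (44.9%), the 3 regulators wholly above the controls in tumour trained hearts, had the most GC-poor transcripts of the 9. Esrrb (54.9%) and Ppard (52.2%), wholly below, were among the GC-rich ones, with Esrra at 50.3%, Ppara at 51.5% and Ppargc1b at 57.8%, but Nrf1, also wholly below, was at 45.4%. Trained 2 differed from the mean of trained 1 and 3 by -0.63 for Ppargc1a, -0.88 for Esrrg and -0.64 for Tfam, and by 0.51 for Esrrb, 0.44 for Ppard and 0.36 for Esrra on the log2 scale. The medians of the GC-poor and GC-rich genes differed by -0.87 and 0.33. The most GC-rich regulator, Ppargc1b, did not follow its class, at -0.14. Nrf1 and Ppara were at -0.06 and -0.03.

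**Figure D4:**
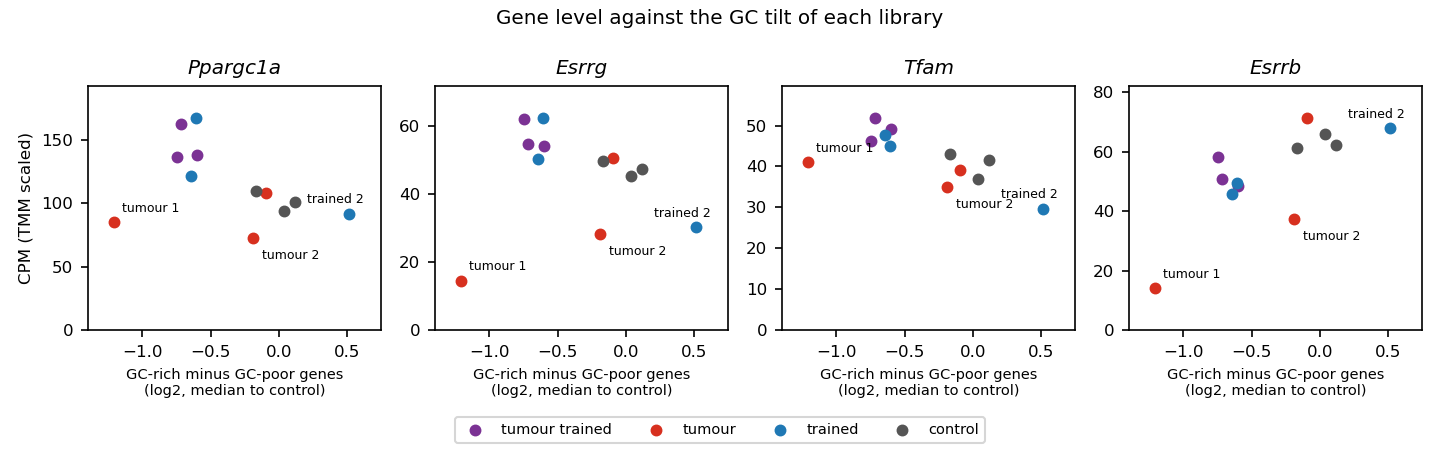
TMM-scaled CPM (y axis) of Ppargc1a, Esrrg, Tfam and Esrrb in each of the 12 libraries against the library's GC tilt (x axis, log2), coloured by group. Trained 2, at the right edge with a tilt of 0.51, has low Ppargc1a, Esrrg and Tfam and high Esrrb, while the other running libraries lie near -0.60 to -0.75.

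Across the 10 libraries other than tumour 1 and 2, some regulators varied together and others in opposite directions. Pearson's r of log2 CPM was 0.80 between Ppargc1a and Tfam, 0.78 between Ppargc1a and Esrrg and 0.85 between Esrrg and Tfam. Esrra and Ppard were correlated at 0.82, and Esrra ran against Esrrg (-0.88) and Tfam (-0.87), as Esrrb did against Ppargc1a (-0.76) and Tfam (-0.78). Without trained 2, the first 3 were 0.80, 0.86 and 0.57, and Esrra against Esrrg was -0.57. Esrra was then at 0.58 with Ppard and -0.63 with Tfam, and Esrrb at -0.72 with Ppargc1a and -0.84 with Tfam. These values describe 10 libraries that share groups and the GC tilt, and carry no test.

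By the same measure, the genes most like Tfam were Bnip2 (r = 0.99), Zzz3 (0.98) and Cluap1 (0.98), and those most like Esrrg were Dync1i2 (0.97), Ankrd17 (0.97) and Hnmt (0.97). Those of Ppargc1a were Fan1 (0.98), Pcdh7 (0.96) and Pla2r1 (0.94), of which Fan1 had 51.6% GC beside 41.7% for Ppargc1a. Esrra was nearest to Tmem160 (0.98), Fndc5 (0.97) and Rex1bd (0.97), and Fndc5, which encodes the precursor of irisin, was at 0.99 over all 12 libraries. Esrrb was nearest to Acad12 (0.98), Dvl3 (0.97) and Sbk1 (0.97), and Ppard to Lmtk2 (0.99), Cd81 (0.97) and Chtf8 (0.96). The leading gene was Prkag3 (0.93) for Nrf1, Synm (0.92) for Ppargc1b and Zdhhc6 (0.95) for Ppara. Some of this likeness was lost over all 12 libraries, where r was -0.86 for Zdhhc6 with Ppara, -0.69 for Prkag3 with Nrf1 and -0.17 for Dync1i2 with Esrrg. It was 0.26 for Ankrd17 with Esrrg, 0.11 for Pla2r1 with Ppargc1a and 0.34 for Lmtk2 with Ppard. It was 0.91 for Bnip2 with Tfam.

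Of 29 tested PPAR targets of fatty acid use, 3 rose for tumour against control and none fell, where 681 of all 12778 genes rose and 187 fell. The median log2 fold change of the list was -0.15 beside 0.11 for all genes. Among them were Angptl4, whose protein blocks lipoprotein lipase (log2 2.44 ± 0.50, edgeR adjusted p = 0.0390), and the lipid droplet coat gene Plin2 (0.96 ± 0.14, edgeR adjusted p = 0.0283). Angptl4 was at 38.6, 66.8 and 70.7 CPM in tumour hearts, against 7.9, 15.0 and 9.6 CPM in control hearts. For tumour trained against tumour, 3 of the 29 fell and none rose, where 927 of all genes fell and 229 rose: Angptl4 (-2.08 ± 0.49), Plin2 (-0.93 ± 0.14) and the uncoupling protein gene Ucp2 (-1.02 ± 0.23), each at an edgeR adjusted p of 0.0357. None of these values changed sign over 25 alternatives. The calls of Angptl4 and Plin2 for tumour against control were lost with any 1 control library left out, at edgeR adjusted p up to 0.161, and the 3 for tumour trained against tumour with any 1 tumour trained library left out, at up to 0.136. Over all alternatives their adjusted p reached 0.296 and 0.232. For tumour against control, Angptl4 was called in 13 and Plin2 in 15 of the 25 alternatives. That Angptl4 call was also lost with any 1 trained or tumour trained library left out. For tumour trained against tumour, Angptl4 was called in 12, Plin2 in 15 and Ucp2 in 14.

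In tumour 3, where Ppara and Ppargc1a were within the control range, further PPAR targets had high levels. Pdk4, which holds back glucose oxidation, had 753, 1393 and 4002 CPM across tumour libraries 1 to 3, against 376, 765 and 977 CPM in control hearts. Acot1, which encodes a cytosolic acyl-CoA thioesterase, was at 41.3, 23.2 and 103.8 CPM in tumour hearts, against 21.0, 24.6 and 26.3 CPM in control hearts. With tumour 1 and 2 left out, the 29 had a median of 0.46 for tumour against control, beside 0.02 for all genes. Values in that fit included Pdk4 (2.51), Angptl4 (2.72), Cpt1a (0.83), Ehhadh (2.07), Ucp3 (1.76), Acot1 (2.13) and Plin2 (1.14). For tumour trained against tumour in the same fit, the median of the 29 was -0.42, beside -0.001 for all genes. Angptl4 was at -2.37 there. That fit rests on tumour 3 alone, and Pdk4, Acot1, Cpt1a, Ehhadh and Ucp3 are named here after their values were seen. Trained against control called none, with 1 at an unadjusted p below 0.05, Angptl4 at 2.11 ± 0.49 (edgeR adjusted p = 1.00), and DESeq2 called none. Angptl4 was at 50.4, 73.3 and 16.5 CPM in trained hearts, but at 19.3, 9.2 and 13.0 CPM in tumour trained hearts. Its interaction of tumour and running was -4.19 ± 0.69 (edgeR adjusted p = 0.175), and -4.48 without tumour 1 and 2 (edgeR adjusted p = 0.0397).

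**Figure D5:**
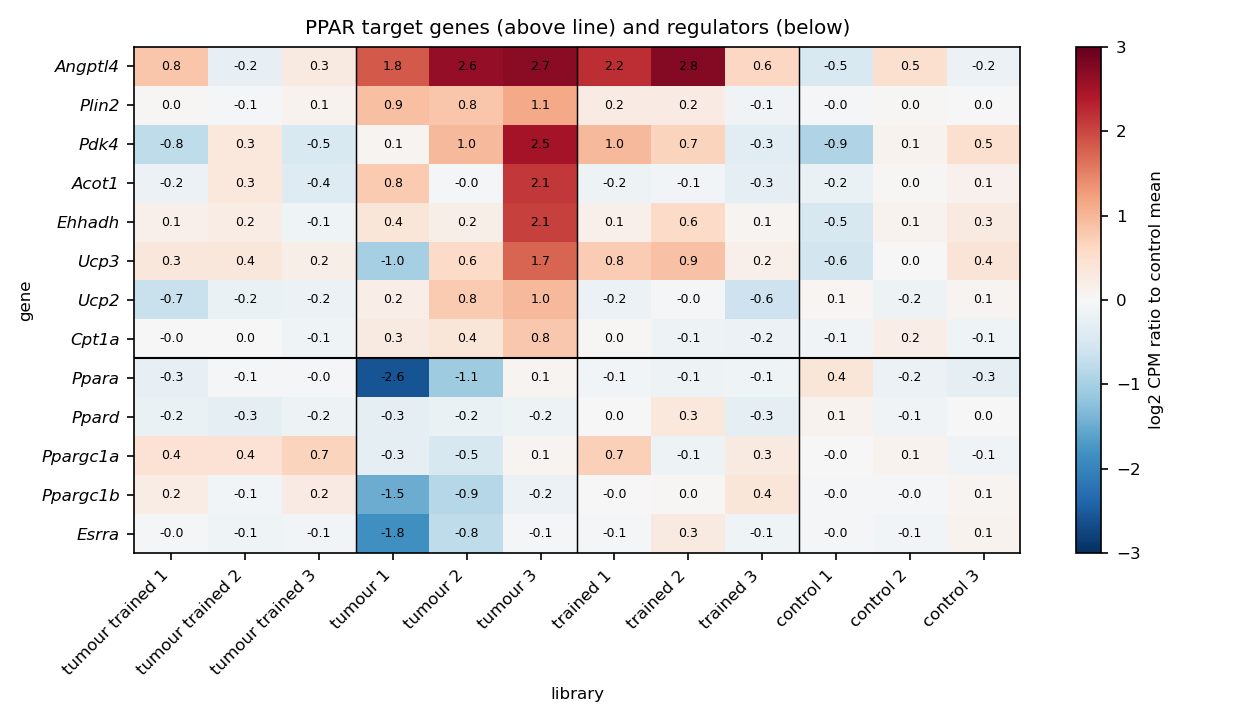
Log2 ratio of CPM to the control mean (colour and printed value) for 8 PPAR target genes above the line and 5 regulators below it, in each of the 12 libraries. Pdk4, Acot1 and Plin2 are highest in tumour 3, where Ppara, Ppargc1a and Esrra are within 0.1 of the control mean on the log2 scale.

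The targets that PGC-1 and the ERRs share, genes of the respiratory chain and citric acid cycle, had negative values for tumour against control in the median. None of 25 tested was called by edgeR in either comparison with tumour hearts, with 1 and 2 at an unadjusted p below 0.05, where 4395 and 4073 of all 12778 genes were, and 0 called by DESeq2. Their median log2 fold change was -0.69 for tumour against control and 0.59 for tumour trained against tumour, beside 0.11 and -0.04 for all genes, and 0.02 and -0.13 without tumour 1 and 2. Cox7a1, the heart and muscle isoform of a cytochrome oxidase subunit, had 200, 475 and 1076 CPM across tumour libraries 1 to 3, against 1009, 1107 and 1194 CPM in control hearts, the order seen for Esrra and Ppara.

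Among 19 tested genes that copy and transcribe mitochondrial DNA or act beside NRF-1, edgeR called none, with 2 and 4 at an unadjusted p below 0.05 in the comparisons with tumour hearts, a smaller share than the 4395 and 4073 of all 12778 genes. DESeq2 called 3 for tumour trained against tumour, beside 18.6% of all genes. Tfb2m, the partner of TFAM in starting mitochondrial transcription, was at 97.0, 102.4 and 101.2 CPM in tumour trained hearts, against 44.6, 60.7 and 81.7 CPM in tumour hearts, a log2 fold change of 0.69 ± 0.23 (edgeR adjusted p = 0.0765). Gabpb2, a subunit of the ETS factor GABP, was at 61.4, 33.8 and 19.7 CPM in tumour hearts, against 21.4, 23.8 and 21.5 CPM in control hearts, high in tumour 1 and 2 as Nrf1 was.

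Of 21 tested relatives and cofactors of the PGC-1 proteins, 1 was called for tumour trained against tumour, where 9.05% of all genes were. None was called for tumour against control, where 6.79% of all genes were. Pprc1, a further relative of the PGC-1 family, was at 14.8, 18.2 and 15.7 CPM in tumour trained hearts, against 58.0, 40.7 and 18.6 CPM in tumour hearts (log2 -1.27 ± 0.32, edgeR adjusted p = 0.0371), and was -0.21 without tumour 1 and 2. Its adjusted p ranged from 5.86e-05 to 0.833 over 25 alternatives. Perm1, a muscle factor induced by PGC-1 and the ERRs, was at 74.5, 208.7 and 354.3 CPM in tumour hearts, against 622.4, 543.1 and 551.4 CPM in control hearts (log2 -1.43 ± 0.40, edgeR adjusted p = 0.0546). Its levels in trained hearts (471.2, 530.9 and 435.0 CPM) and tumour trained hearts (437.0, 475.8 and 483.2 CPM) were below every control library too. Perm1 was also below the controls in tumour 3, at -0.68 for tumour against control without tumour 1 and 2. For that comparison it was -0.53 when scaled to cardiomyocyte markers (edgeR adjusted p = 0.0233, with 74.4% of all genes called). Its adjusted p ranged from 0.000852 to 0.296 over 25 alternatives, each with a negative value.

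Of 20 tested kinases and factors upstream of PGC-1, 1 was called for tumour trained against tumour, where 9.05% of all genes were. None was called in the other comparisons. Mef2a, which activates the Ppargc1a promoter in muscle, was at 242.4, 263.6 and 251.0 CPM in tumour trained hearts, against 116.3, 134.1 and 136.9 CPM in tumour hearts (log2 0.97 ± 0.22, edgeR adjusted p = 0.0357, up to 0.428 over 25 alternatives). It was -0.39 when scaled to cardiomyocyte markers, where the median gene was at -1.46. Prkaa2, the main AMP-activated kinase subunit of muscle, was at 193.1, 179.3 and 200.8 CPM in tumour trained hearts, against 58.5, 109.9 and 135.6 CPM in tumour hearts (log2 0.92 ± 0.26, edgeR adjusted p = 0.0516). Both were low in trained 2 relative to trained 1 and 3, as Ppargc1a was. Over the interaction of tumour and running, the regulators' log2 values ranged from -0.61 for Nrf1 to 0.87 for Esrrg, with edgeR adjusted p between 0.370 and 0.926. Without tumour 1 and 2 the interaction was 0.21 for Nrf1 and 0.16 for Esrrg.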

How the data were processed

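Estimated counts per gene were deposited by the authors as 1 table for the series, not normalized, and were used as deposited after rounding to whole numbers. The submitters' processing notes name HISAT2 2.2.1, featureCounts, GRCm39 and mm10. Annotation, strand setting and filters were not given in the sources used here; without strand, reads of a gene and its antisense partner are not separable. Non-whole values made up 7.09% to 8.92% of each library.

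Groups and replicate numbers come from the sample titles. Genes were tested with edgeR 4.0.16 (R 4.3.3) in 1 quasi-likelihood fit of 12 libraries with 8 residual degrees of freedom, TMM scaling and the default filter on low counts, which kept 12778 genes and removed 4619. Adjusted p is Benjamini-Hochberg over all genes tested, called below 0.05. SE is the log2 fold change over the square root of F, and 95% intervals use 8 degrees of freedom. Totals leave 3 counts at 0.225 to 0.339 CPM, which covers counting error only. GC content was taken from the longest GENCODE vM21 transcript, for 99.3% of tested genes, and corrected by a local regression per library used as edgeR offsets. Scripts were tested on simulated data.

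Replicate pairs differed by more than sampling noise, with chi-square per gene from 3.73 to 390.0, so none was merged. The alternatives were DESeq2 1.42.0, other scalings and filters, the replicate block, only the groups compared, and leaving out libraries. The GC corrections and the fits without trained 2 beside tumour 1 and 2 were chosen after seeing the data. All 9 regulators are named. From each list, the genes with the lowest p in a comparison were eligible to be named, up to 4 in comparisons with tumour hearts and up to 2 in others. For likeness, 3 genes were taken per regulator, requiring an average log2 CPM of 1 or more and a settled symbol. Members, lists and naming rule were chosen with earlier results of these data known. The values of 1 PPAR target gene are not reported here, though it stays in the list's counts and medians.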

Additional observations from a re-analysis of the deposited data

How the results depend on the processing

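No regulator was called by edgeR in the fit of 12 libraries, and the number called was 0 in every comparison with DESeq2 size factors in edgeR, with the low-count filter dropped or tightened, and without tumour 1 and 2. For tumour against control it was 1 with DESeq2 (17.8% of all genes) and 4 when scaled to cardiomyocyte markers (74.4% of all genes). It was from 0 to 6 when leaving out 1 library, with 6 without tumour 3 (52.3% of all genes). For trained against control it was 2 without tumour 1, tumour 2 and trained 2 (11.7% of all genes). For tumour trained against tumour it was 3 with DESeq2 (18.6% of all genes) and 1 with library size alone (13.2%). It was 2 when scaled to cardiomyocyte markers (64.4% of all genes) and 1 with the GC correction (11.4%). Leaving out 1 library gave from 0 to 7, with 7 without tumour 3 (48.7% of all genes). For tumour trained against control it was 1 with only the groups compared (19.5% of all genes). It was 3 without tumour 1, tumour 2 and trained 2 (22.1% of all genes), and 1 with the GC correction added to that (9.22%). The interaction had from 0 to 6 when leaving out 1 library, with 6 without tumour 3 (29.6% of all genes). Of 1341 fold changes of regulators under alternatives, 161 had the opposite sign, nearly all of them not called. The 4 that were called were Ppargc1a (1.22), Ppard (1.24) and Tfam (1.44) for tumour against control when scaled to cardiomyocyte markers, where the median of all genes was 1.58 and all 3 lay below it, and Esrrb (-0.46) for tumour trained against tumour without tumour 1, tumour 2 and trained 2. That Esrrb value rests on tumour 3 alone in the tumour group. The cause of these sign changes was not tested.

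With the replicate number as a block, 0 regulators were called in every comparison, and 16 genes in all for tumour against control and 18 for tumour trained against tumour, beside 868 and 1156 without it. Same-numbered samples correlated above 0.1 in only 3 of 18 pairs, with r from -0.27 to 0.24. Pairing by number was thus not seen, but so few libraries cannot exclude it. The lowest level of a regulator was 14.1 CPM, above the 0.225 to 0.339 CPM that 3 counts stand for.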
